A study of Mus musculus with 8 samples.

Results

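The canonical Wnt pathway core genes are 9 genes whose proteins carry the Wnt signal from the cell surface to the nucleus: Lrp5, Lrp6, Axin1, Axin2, Apc, Gsk3b, Ctnnb1, Lef1 and Tcf7l2. They were chosen by name, and their probes were found on 2 promoter arrays through the gene annotation in the files. 8 of the 9 had probes around their own start. All genes here means 16627 genes with at least 3 neighbouring probes on either array, of which 15800 had at least 2 probes within 500 bp of the start. Apc had none. The 11 probes that list its transcript lay 104818 to 108393 bp past its start, at the promoter of Srp19, and were not counted, so Apc was not analysed here.

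Canonical Wnt signalling turns on the stability of β-catenin. Without Wnt, a cytoplasmic complex of Axin, APC and the kinase GSK3β marks β-catenin for destruction, and with Wnt, Frizzled and LRP5 or LRP6 at the membrane stop this complex, so that β-catenin enters the nucleus and works with TCF/LEF factors on target genes. In blood, the dose of this signal affects the renewal of stem and progenitor cells.

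The study asked where HoxB4, a homeobox transcription factor that expands blood progenitors in culture, sits on chromatin. Embryonic stem cells of the line B6N-22UTR were differentiated for 6 days into embryoid bodies, c-Kit+CD41+ precursors were plated on OP9 stromal cells, a retrovirus brought in HoxB4 with a 3xFLAG tag, and c-Kit+ cells were collected on day 12 of the coculture. Flag-IP DNA (Cy5) was hybridised against input DNA (Cy3) of the same cells, once on each of 2 Agilent arrays that carry different promoters, and both kinds of DNA had been amplified with T7 RNA polymerase. The protein measured was thus the overexpressed, tagged one, no Flag-IP from cells without the tag was analysed here, and the cell type cannot be checked from DNA ratios. Expression arrays of other cultures (MigR1, HoxB4, iHoxB4) belong to the same series and were not used here.

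Every value below is log2 of Flag-IP over input, centred on the median of its array, so that 0 is the typical probe. Negative positions are upstream of the gene start that the files give (the arrayed start), and positive ones are called inside the gene. A window is the median of 3 neighbouring probes, and its value at 1 or more means a ratio at least 2-fold above the typical probe. Each promoter was measured on 1 array, so there is no replicate and no test, and conditions cannot be compared. As error, the scanner software's own estimate per probe is given after ±. It ran from 0.204 to 0.941 on the log2 scale over the 274 probes of the 8 genes, with a median of 0.225. Control spots printed many times on an array had a similar median SD at input signals of 300 to 1000. It was 0.231 on array 1 and 0.201 on array 2. At 100 to 300 it was 0.323 and 0.281, from 3 control probes and 1. Above 1000 it was 0.093 and 0.083, less than the scanner error of any of the 274 probes. The scanner error and the control spots cover measurement on the array alone and leave out the spread between cultures and immunoprecipitations.

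As a group, the core Wnt genes carried Flag-HoxB4 signal near that of all genes. The highest window reached 1 at Gsk3b, Lef1 and Ctnnb1, 3 of 8 genes, where 41.8% of all genes did, and 2 at none of the 8, where 2.9% of all genes did. The median highest window was 0.93 for the 8 genes and 0.89 for all genes, whose quartiles were 0.54 and 1.25. Of 250 windows at these genes, 10 (4%) were at 1 or more, against 6.44% of 425939 windows on both arrays. With the processed signals, what set single genes apart was the course of the signal along the promoter. It was low upstream and high inside at Ctnnb1, and above 0 at most probes of Lef1. At Axin2 it was low, and at Lrp5 it was alike on average on both sides of the start.

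The RefSeq promoters of Ctnnb1, Gsk3b and Axin2 are shown because the first 2 of these genes were among the 3 that reached 1 past the arrayed start and Axin2 was the lowest of the 8. Each runs from 250 bases before to 50 bases after a RefSeq start in build GRCm38.p6, on the + strand. The highest windows of these genes, at 2181, 1614 and 1073, lie outside the sequences shown, and the sequence under them was not searched. No label or header names the build of the array coordinates, so starts were matched by their distances to 10 neighbouring genes. The Gsk3b start differed by 3.5 bp and the Axin2 start by 17 bp. Ctnnb1 has a pair of RefSeq starts, 75 and 103 bp from the arrayed one, and the nearer is shown.
Ctnnb1: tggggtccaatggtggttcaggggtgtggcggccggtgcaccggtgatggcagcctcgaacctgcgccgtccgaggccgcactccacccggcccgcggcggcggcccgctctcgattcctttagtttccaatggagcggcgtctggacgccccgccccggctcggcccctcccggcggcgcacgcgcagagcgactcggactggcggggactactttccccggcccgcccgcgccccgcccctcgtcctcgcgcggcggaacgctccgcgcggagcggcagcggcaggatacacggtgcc
Gsk3b: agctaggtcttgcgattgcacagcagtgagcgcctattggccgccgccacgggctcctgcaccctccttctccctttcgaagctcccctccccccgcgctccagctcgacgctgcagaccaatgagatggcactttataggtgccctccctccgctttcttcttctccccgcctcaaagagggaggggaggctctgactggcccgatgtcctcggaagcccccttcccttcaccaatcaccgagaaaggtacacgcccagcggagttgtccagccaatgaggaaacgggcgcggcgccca
Axin2: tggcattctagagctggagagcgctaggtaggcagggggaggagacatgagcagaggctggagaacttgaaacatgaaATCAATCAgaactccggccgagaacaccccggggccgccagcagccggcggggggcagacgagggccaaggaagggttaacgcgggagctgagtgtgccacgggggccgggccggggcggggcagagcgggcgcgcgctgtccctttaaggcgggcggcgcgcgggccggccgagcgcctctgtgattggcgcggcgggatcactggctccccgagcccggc
The Ctnnb1 sequence is chr9:120933150-120933449, that of Gsk3b is chr16:38088751-38089050 and that of Axin2 is chr11:108920099-108920398. Capitals mark a match to the Hox-Pbx sequence TGATNNAT.

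All 3 promoters are rich in G and C, with 75.3% at Ctnnb1, 63% at Gsk3b and 70% at Axin2, against a median of 52.7% over 32851 mouse promoters. They hold 46, 21 and 31 CpG dinucleotides, against a median of 7. Both strands were searched for the homeobox core TAAT, for TGATNNAT, which Hox proteins bind together with Pbx partners, and for the TCF/LEF sequences CTTTGAT and CTTTGAA. The shares of all promoters of this length that hold them were 58% for TAAT, 8.85% for TGATNNAT, 3.73% for CTTTGAT and 5.14% for CTTTGAA. Among the 3 promoters the search found 1 match, TGATNNAT at position -172 of Axin2. The array probe nearest to it, centred at -199, read 0.77 ± 0.225, and its neighbours at -355 and 92 read -2.11 ± 0.941 and -0.26 ± 0.231. The nearest RefSeq start lay 458.5 bp upstream of the arrayed start at Tcf7l2 and 2694 bp past it at Lef1, so their sequences are not shown. In these 2 promoters the same search found TAAT at -20 and 14 from the RefSeq start of Tcf7l2, and no match at Lef1. Axin1, Lrp5, Lrp6 and Apc had no entry in the table.

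**Figure D1:**
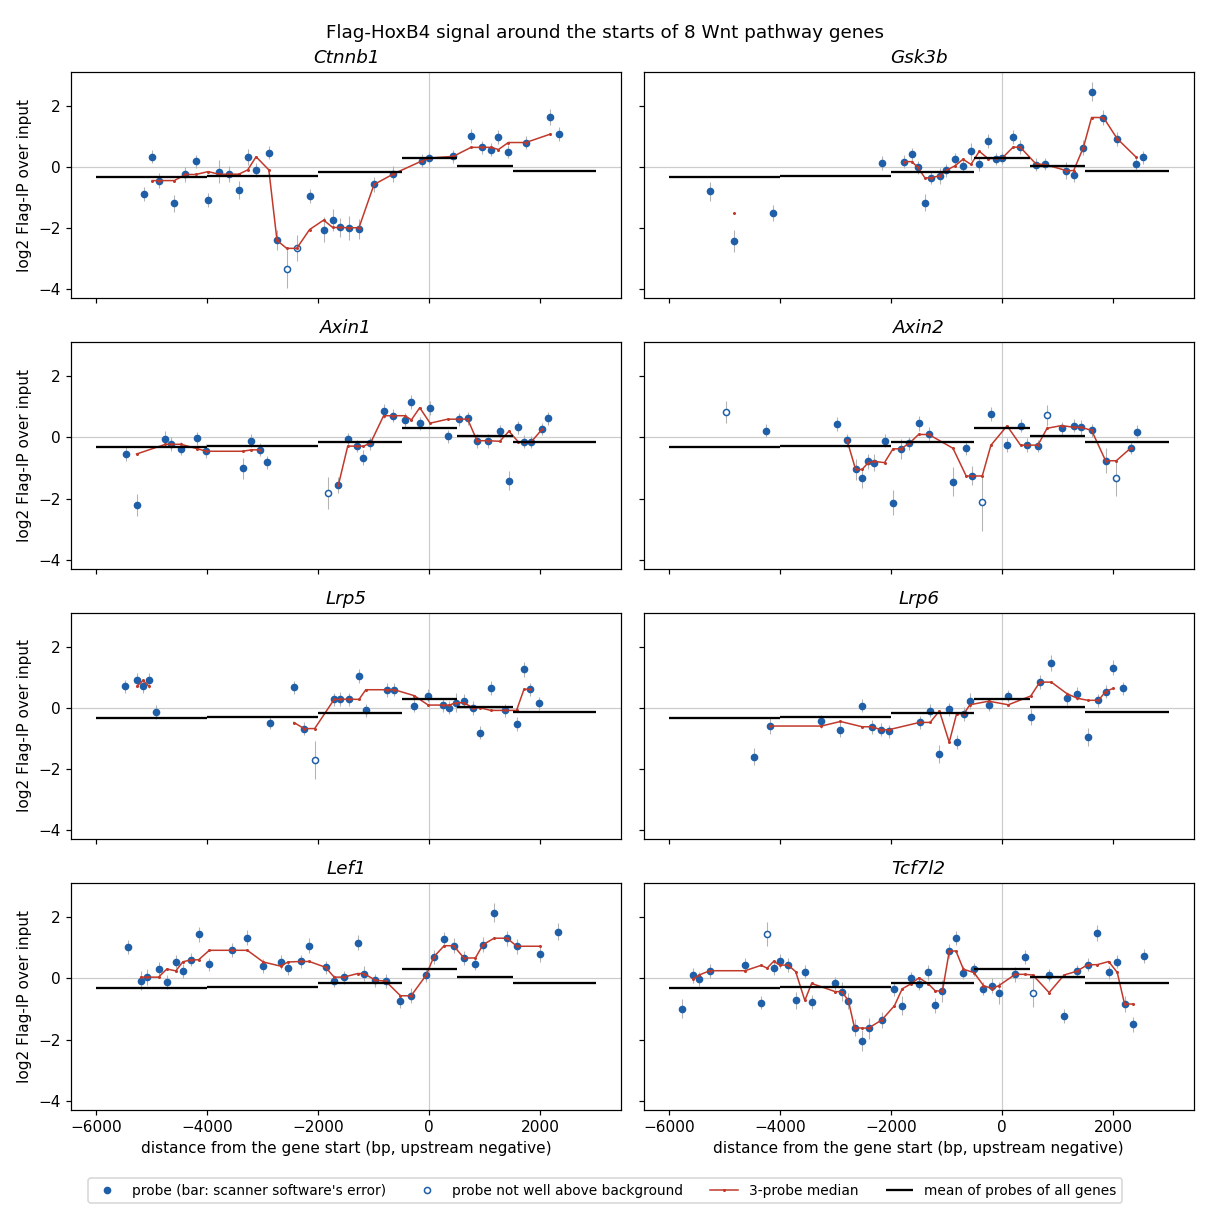
Log2 of Flag-IP over input (vertical axis) against distance from the gene start in bp (horizontal axis) for the 8 genes. Blue points are single probes with the scanner software's error as a bar, open points are probes not well above background, red lines are 3-probe medians (broken over gaps above 1000 bp) and black bars are means over the probes of all genes in 6 distance ranges. Ctnnb1 dips to -3.32 upstream and reaches 1.62 inside the gene, and Lef1 lies above 0 at 31 of 38 probes.

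Ctnnb1 encodes β-catenin, the protein whose stability the pathway controls. Its start on array 2 is at position 120782172 of chromosome 9, + strand, and 35 probes ran from -5141 to 2343. The 11 probes from -130 to 2343 were all above 0, from 0.20 to 1.62, with a mean of 0.73 ± 0.42 (SD over probes). The 11 probes just upstream, from -2744 to -646, were all below 0, from -3.32 to -0.23, with a mean of -1.81 ± 0.91. With the processed signals, and with other background correction (normexp), the change of sign thus fell between the probes at -646 and -130. With the array's brightness trend taken off it did not. The probe at -646 then read 0.29, and those at -130, 3 and 430 read -0.33, -0.22 and -0.065.

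The highest Ctnnb1 window lay inside the gene, at the last 3 probes of the tiled region (chromosome 9, 120783883 to 120784544 in the files' build). Its probes at 1740, 2181 and 2343 read 0.79 ± 0.227, 1.62 ± 0.258 and 1.07 ± 0.230, and the window of 1.07 was higher than at 63.7% of all genes. With normexp the window was 1.20, at percentile 64.3. With the brightness trend taken off it was 0.61, at percentile 31.3 and below the median of 0.82 for all genes. The array does not show whether the signal went on beyond 2343. With the processed signals, the Ctnnb1 mean over positions 1500 to 3000 was 1.16, at percentile 98.4 of 15221 genes. The probes of all genes had a mean of -0.14 there.

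The low stretch upstream was the deepest of the 8 genes. Its lowest window, at -2570 (120779399 to 120779813), was -2.66, with probes of -2.40 ± 0.324, -3.32 ± 0.628 and -2.66 ± 0.427. Only 2.53% of all genes had a lowest window this low or lower. 2 of the 3 probes were not well above background, where the Flag-IP signal was 29.6 and 70.8 against an input signal of 282.5 and 426.7. A second low run, 5 probes from -1904 to -1268, read -2.05 to -1.74, all well above background. Of 33 Ctnnb1 windows, 9 were at -1 or below, where 11.6% of all windows on both arrays were.

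The mean inside the gene (beyond 500) minus the mean upstream (beyond -500) puts this course into 1 value, a measure chosen after the profiles had been seen. It was 1.88 for Ctnnb1, from 0.90 ± 0.36 (SD, 8 probes) inside and -0.99 ± 1.06 (SD, 24 probes) upstream, at percentile 99.8 of 12202 genes. Probe brightness moved with it: the median over probes of the log2 signal, averaged over both channels, was 11.2 inside and 8.54 upstream, and over whole arrays the log ratio correlated with brightness at r = 0.574 and 0.546. With other background correction (normexp) the difference was 1.54, again at percentile 99.8. With the array's brightness trend taken off it was 0.97, at percentile 97.7.

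Gsk3b, the kinase that phosphorylates β-catenin for destruction, had the highest window of the 8 genes with the processed signals. At 1614, inside the gene (chromosome 16, 38009676 to 38010097), the window reached 1.61, higher than at 90.4% of all genes. Its probes at 1466, 1614 and 1828 read 0.63 ± 0.241, 2.45 ± 0.311 and 1.61 ± 0.260, and the next probe, at 2075, read 0.92 ± 0.225. The peak was narrow: the probes at 1291 and 2417 on either side read -0.27 and 0.10. The first rank rested on the settings: with normexp the window was 1.26, at percentile 68.1 and below Axin1 at 1.30 and Lrp6 at 1.27, and with 5-probe windows it was 0.92, below Lef1 at 1.31 and Ctnnb1 at 0.97.

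Around the Gsk3b start the signal was moderate. The 11 probes from -845 to 779 were above 0, from 0.036 to 0.98, and the mean within 500 bp of the start was 0.52 ± 0.36 (SD, 6 probes), at percentile 64.1 of 15800 genes. Far upstream 2 probes, at -4819 and -4121, read -2.42 ± 0.356 and -1.50 ± 0.272. Gsk3b is thinly tiled there, with 1 probe between -4000 and -2000. Inside minus upstream was 0.95, at percentile 91.1.

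Axin1 and Axin2 encode the scaffolds of the destruction complex, and Axin2 is itself a common Wnt target gene. Axin1 (chromosome 17, start 25866333) had a mean around its start of 0.64 ± 0.44 (SD, 5 probes), at percentile 72.2 of all genes and the highest of the 8 with the processed signals. With normexp Lrp6 was higher, at 1.09 against 0.87 at Axin1, and with the brightness trend taken off Lef1 was, at 0.42 against 0.19 at Axin1. Its 9 probes from -823 to 690 were all above 0, from 0.036 to 1.16, and the 17 probes from -5464 to -1062 all below 0. Its highest window, 0.97 at -173, with probes of 1.16 ± 0.235, 0.46 ± 0.210 and 0.97 ± 0.225, was the only highest window of the 8 within 500 bp of a start, a place where 36.0% of all genes had theirs.

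Axin2 (chromosome 11, start 108736455) was lowest by both measures with the processed signals. Its highest window was 0.38, at 1073, with probes of 0.71 ± 0.348, 0.30 ± 0.207 and 0.38 ± 0.210, and only 17.1% of all genes had a highest window this low or lower. Its mean within 500 bp of the start was -0.29 ± 1.103 (SD, 5 probes). With the brightness trend taken off, its highest window of 0.55 stood above that of Lrp6 at 0.44, and its mean around the start of 0.082 above that of Ctnnb1 at -0.20. With normexp its highest window was 0.74, still the lowest, and its mean around the start was -0.031, next to -0.034 at Tcf7l2. The 5 probes around the start scattered more than at any other of the 8 genes, from -2.11 at -355, a probe not well above background, to 0.77 at -199. Axin2 also had the smallest share of probes well above background, 28 of 32. Of its 28 windows, 5 were at -1 or below, where 11.6% of all windows were.

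Lrp5 and Lrp6 encode the co-receptors that bind Wnt together with Frizzled. At Lrp5 (chromosome 19, - strand, start 3686554) the averages on both sides of the start were near the typical probe, with means of 0.16 ± 0.63 (SD, 9 probes) inside and 0.24 ± 0.72 (SD, 16 probes) upstream. Lrp5 was the 1 gene of the 8 with a lower mean inside than upstream, and its difference was -0.077. The upstream signal was uneven, with means of 0.61 from -6000 to -4000 (percentile 93.6), -0.54 from -4000 to -2000 (percentile 35.3) and 0.42 from -2000 to -500 (percentile 81.8). The highest Lrp5 window, 0.89, lay at -5156, far upstream, and its probes of 0.90 ± 0.231, 0.70 ± 0.225 and 0.89 ± 0.233 lay within their errors of each other. With normexp the highest Lrp5 window was 0.98 and lay inside the gene, at 1816.

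Lrp6 (chromosome 6, - strand, start 134532475) differed from Lrp5, with a lower mean upstream than inside. Upstream, 9 probes in a row from -2347 to -684 were below 0, from -1.50 to -0.054. Inside, 4 probes in a row from 681 to 1356 were above 0, from 0.31 to 1.47. Its inside mean of 0.45 ± 0.71 (SD, 10 probes) against -0.57 ± 0.53 (SD, 15 probes) upstream gave a difference of 1.03, at percentile 92.9. The highest window, 0.84 at 889, had probes of 0.84 ± 0.223, 1.47 ± 0.249 and 0.31 ± 0.208 and was at percentile 46.3.

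Lef1 and Tcf7l2 encode DNA-binding partners of β-catenin. Lef1 (chromosome 3, start 131099625) was above 0 at 31 of 38 probes and had 7 of the 10 windows at 1 or more found at the 8 genes. Its highest window, at 1166 (131100570 to 131101050), was 1.31, higher than at 78.0% of all genes, with probes of 1.097 ± 0.239, 2.15 ± 0.298 and 1.31 ± 0.248. With normexp the highest window lay upstream instead, at the probes from -4157 to -3563, and was 1.26, at percentile 68.1. The probes at 967, 1166 and 1400 then read 0.78, 0.97 and 0.80. The signal covered the region past the arrayed start, with a mean of 1.14 from 500 to 1500 (percentile 96.9) and 1.12 from 1500 to 3000 (percentile 98.0). By the match to neighbouring genes, the nearest RefSeq start of Lef1 lay 2694 bp past the arrayed one, beyond the last probe at 2311. For Lef1, inside and upstream thus refer to the arrayed start alone.

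Lef1 differed from Ctnnb1 upstream. From -4566 to -1870, 13 probes in a row were above 0, from 0.24 to 1.43, and the mean from -4000 to -2000 was 0.70, at percentile 95.2, where all genes averaged -0.29. Its lowest window, -0.57 at -520, was the mildest of the 8. Brightness was alike on both sides of the Lef1 start, with medians over probes of 9.81 inside and 9.95 upstream for the same log2 signal. On average Lef1 thus had a raised level on both sides of the arrayed start, 1.13 ± 0.53 (SD, 8 probes) inside and 0.41 ± 0.52 (SD, 25 probes) upstream. The upstream part next to the start was not raised. There 4 probes in a row, from -973 to -328, were below 0 with a mean of -0.37. The mean from -2000 to -500 was 0.092, at percentile 63.4.

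Tcf7l2 (chromosome 19, + strand, start 55795519) was near 0 around its arrayed start, with a mean of -0.045 ± 0.47 (SD, 5 probes). The nearest RefSeq start lay 458.5 bp upstream of it, and the probes on either side of that place, at -505 and -333, read 0.30 and -0.34. The highest Tcf7l2 window, 0.89 at -949, was uneven, with probes of -0.41 ± 0.359, 0.89 ± 0.230 and 1.32 ± 0.244. It lay upstream of both starts, nearer to the RefSeq one. The clearest feature was a dip of 4 probes from -2656 to -2164, from -2.04 to -1.36, all well above background. This dip overlaps in position with the low stretch of Ctnnb1, but is shorter, and the mean inside Tcf7l2 exceeded the mean upstream by 0.21.

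**Figure D2:**
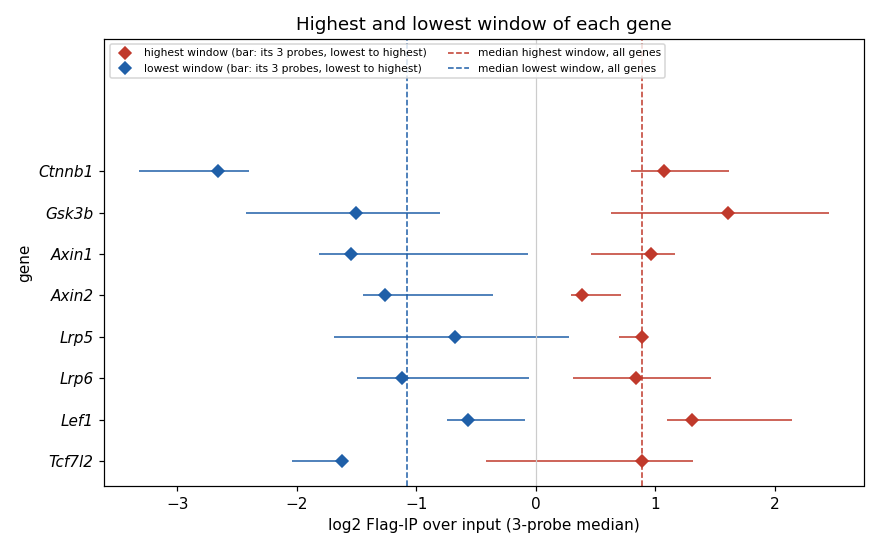
Highest (red) and lowest (blue) 3-probe window of each gene on the log2 scale of Flag-IP over input (horizontal axis), with genes on the vertical axis and a bar from the lowest to the highest of the 3 probes. Dashed lines are the medians of all genes, 0.89 for the highest and -1.08 for the lowest window; Gsk3b stands highest at 1.61 and Ctnnb1 lowest at -2.66.

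A lowest window of -1 or below was seen at 6 of 8 genes, against 54.1% of all genes, and of -2 or below at Ctnnb1 alone, against 11.5% of all genes. Counted by window, the share was smaller than over both arrays. Of 250 windows at the 8 genes, 21 (8.4%) were at -1 or below, against 11.6% of all windows. The 8 genes had 25 to 45 windows each, against a median of 25 over all genes. The lowest window lay upstream of the start at all 8, as it did at 59.98% of all genes. The order from the lowest was Ctnnb1 at -2.66, Tcf7l2 at -1.62, Axin1 at -1.55, Gsk3b at -1.50, Axin2 at -1.26, Lrp6 at -1.12, Lrp5 at -0.68 and Lef1 at -0.57. Neighbours from Tcf7l2 to Lrp6 differ by less than the scanner errors of their probes, and so do Lrp5 and Lef1.

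The order of the highest windows was Gsk3b at 1.61, Lef1 at 1.31, Ctnnb1 at 1.07, Axin1 at 0.97, Lrp5 and Tcf7l2 at 0.89, Lrp6 at 0.84 and Axin2 at 0.38. Neighbours in this order from Ctnnb1 to Lrp6 differ by less than the scanner errors of their probes. Axin2 stands below Lrp6 by more than those errors, an order that turns with the brightness trend taken off. By the arrayed starts and the processed signals, the highest window of 5 of the 8 genes lay more than 500 bp inside the gene. That was so for 32.1% of all genes. Another 2 lay more than 500 bp upstream, as for 32.0% of all genes. These places moved with the signal used. With normexp the highest window of Lef1 moved upstream and that of Lrp5 inside. With the brightness trend taken off, that of Axin2 moved upstream.

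**Figure D3:**
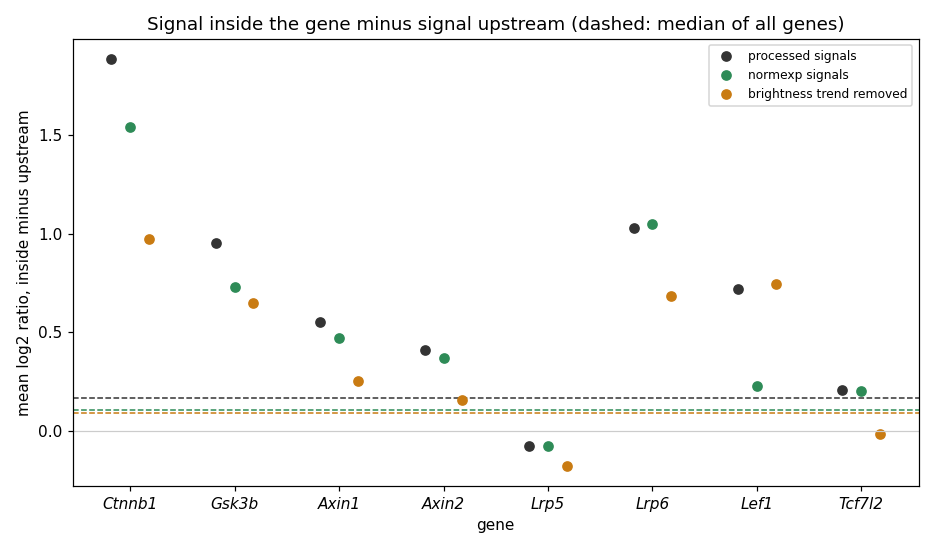
Mean log2 ratio inside the gene minus mean upstream (vertical axis) for each gene (horizontal axis) with 3 signals: the processed signals, the normexp signals and the processed signals with the brightness trend removed. Dashed lines are the medians of all genes; Ctnnb1 is highest with the processed signals at 1.88, and Lrp5 lies below 0 with all 3.

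Inside minus upstream was above 0 at 7 of 8 genes, against 61.5% of all genes, and its median was 0.63 for the 8 against 0.17 for all genes. With normexp it was above 0 at 7, and with the brightness trend taken off at 6, since Tcf7l2 then stood at -0.014. Ctnnb1, Lrp6 and Gsk3b were at or above percentile 90.2 with all 3 signals. Lef1, counted from its arrayed start, was at percentile 83.1, at 61.2 with normexp and at 93.2 without the trend.

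The mean within 500 bp of the start was above 0 at 6 of 8 genes, where 74.1% of all genes were, and the median was 0.26 for the 8 against 0.33 for all genes. The order was Axin1 at 0.64, Gsk3b at 0.52, Lef1 at 0.51, Ctnnb1 at 0.28, Lrp6 at 0.24, Lrp5 at 0.15, Tcf7l2 at -0.045 and Axin2 at -0.29. The first 3 do not differ beyond the spread of their probes, with SDs of 0.44, 0.36 and 0.75. The Ctnnb1 mean rests on 3 probes and the Lrp6 mean on 2, and both moved with the signal used: Ctnnb1 stood at 0.68 with normexp, where all genes had a median of 0.48, and Lrp6 at 1.09 with normexp and 0.0070 without the brightness trend.

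The other genes of the pathway were read from lists by role, without the 9 above. Of 99 genes, 93 had a window, and 48 of them (51.6%) reached 1, against 41.8% of all genes, with a median highest window of 1.04. Cytoplasmic components had the largest share, 15 of 20, with a median of 1.28. There Gsk3a, the sister kinase of Gsk3b, reached 2.25 and Csnk1g1, a casein kinase, 2.04, while Nkd1, an inhibitor that binds Dishevelled, stood at 0.53. Gsk3a and Gsk3b differed in place: the highest window was at -388 at Gsk3a and at 1614 at Gsk3b, and the mean around the start was 1.64 at Gsk3a and 0.52 at Gsk3b.

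Ligands reached 1 at 9 of 19 genes (47.4%) and genes of receptor turnover at 3 of 7 (42.9%), close to the 41.8% of all genes. Among the ligands were Wnt5a at 1.49, Wnt11 at 1.44 and Wnt4 at 0.32. Frizzled receptors reached 1 at 3 of 9 (33.3%), with Fzd7 at 1.26, Fzd1 at 1.21 and Fzd3 at 0.35. The Fzd3 window lay at -8599, and the gene had fewer than 2 probes within 500 bp of its start. Among secreted inhibitors 3 of 13 (23.1%) did, led by Frzb at 2.13 and Sfrp4 at 1.18, both Wnt-binding proteins, with Dkk4, an inhibitor that binds LRP5 and LRP6, lowest at 0.28. In receptor turnover Rnf43 stood at 1.40, Rspo1 at 1.37 and Rspo2 at 0.70, but the Rnf43 window lay at 33291, far inside the gene, and its mean around the start was 0.69. Of the pair needed for ligand secretion, Wls stood at 1.05 and Porcn at 0.61.

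In the nucleus, 7 of 14 genes (50%) reached 1, against 41.8% of all genes, with the corepressors Tle3 at 2.01 and Tle4 at 1.96 highest and the coactivator Crebbp at 0.53 lowest. Among common Wnt target genes 7 of 11 (63.6%) did, with Myc at 1.95, Cd44 at 1.54 and Nkd1, also on the cytoplasmic list, at 0.53. Axin2 and Lef1, themselves often used as Wnt targets, stood at 0.38 and 1.31, below and above the median of 1.20 for that list.

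**Figure D4:**
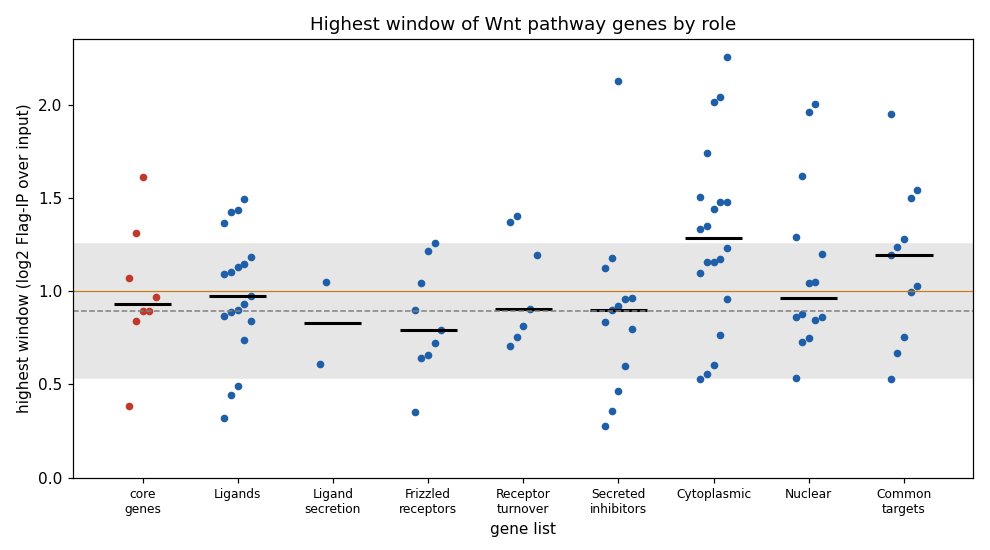
Highest window (vertical axis, log2 of Flag-IP over input) of each gene by list (horizontal axis), with the 8 core genes in red, the other Wnt genes in blue and a black bar at each list's median. The grey band spans the quartiles of all genes, 0.54 to 1.25, the dashed line is their median of 0.89 and the thin line marks 1; the core genes have a median of 0.93 and the cytoplasmic list 1.28.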

How the data were processed

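HoxB4 binding was measured on 2 Agilent promoter arrays, 1 sample each. The intensities are processed signals of Agilent Feature Extraction 10.1.1.1, corrected for background and scaled per dye, per the file headers. Deposited mean and background intensities served the normexp alternative. A log10 ratio per probe, deposited in the scanner files, and the deposited value tables, also log10 and with array medians of 0.0181 and 0.0207, were tried as well.

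Control spots and 19 and 38 probes marked as outliers were left out, giving 236853 and 236732 mapped probes, 95.3% well above background on each array. Log2 of red over green was centred on each array's median (0.060 and 0.069 before centring). Windows took 3 probes with starts at most 1000 bp apart, all naming the gene. No loess step was used. The normexp offset was 50 (limma 3.58.1, R 4.3.3) and the lowess span 0.3. Other steps ran in Python 3.11.15, and the window code was tested on simulated data. Gene symbols were updated through RefSeq: accessions settled 16294 of 16908, symbols 311 and synonyms 169, while 134 stayed as in the files. The 9 genes and the Wnt lists were chosen with earlier results of these data known. All 9 genes are named, and of each list the 2 genes with the highest and the 1 with the lowest highest window. The number of arrays limits the precision.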

Additional observations from a re-analysis of the deposited data

How the results depend on the processing

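With 1 array per promoter there is no replicate, and neither error given covers the spread between cultures. No paired analysis was possible because each promoter lies on 1 array and no test was made. Base composition could not be corrected because the files used here give no probe sequences, and that alternative was not run. The count of core genes at 1 or more, 3 with the settings used, was 5 with normexp (50.4% of all genes), 1 with 5-probe windows (26.8%) and 7 with single probes (69.3%), and 7, 1 and 0 at thresholds of 0.5 (77.1%), 1.5 (13.5%) and 2 (2.9%). With the brightness trend removed it was 2 (34% of all genes), as Ctnnb1 then stood at 0.61. With single probes the median of the core genes was 1.48, against 1.30 for all genes. In that setting 75 other Wnt genes reached 1, where 69.3% of all genes did. Signs turned in the mean around the start: with the brightness trend removed Ctnnb1 stood at -0.20, Axin2 at 0.082 and Tcf7l2 at 0.20, and within 1000 bp Tcf7l2 stood at 0.19. Inside minus upstream, chosen with its alternatives after seeing the data, turned to -0.014 at Tcf7l2 without the trend. Lowest windows shrank under normexp, where Ctnnb1 had -1.13 and was the 1 core gene at -1 or below (6.83% of all genes), and 3 core genes were without the trend (28.6%). The causes were not tested.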
